A study of Homo sapiens with 8 samples.

Results

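Kinesins are motor proteins that walk along microtubules, and the genes described here are the 47 protein-coding kinesin genes found among the 62826 genes of the deposited gene tables. Their rule takes symbols only (KIF followed by a digit, KIFC1 to KIFC3, the associated subunit KIFAP3 and the light chains KLC1 to KLC4). Of these, 12 have their main known work in the dividing cell and are called mitotic below. The other 35 move cargo in axons, dendrites or cilia, shape microtubules outside mitosis, or have a less settled role, and are called transport or other kinesins. All 12 mitotic genes and 31 of the 35 others had enough reads to be tested. KIF25, KIF2B, KIF4B and KLC3 did not.

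RNA sequencing was done on LUHMES cells, an established human mesencephalic line with the WT genotype. Tetracycline switches off the line's v-myc transgene, and the cells then leave the cell cycle and become neurons, labelled dopaminergic. Both groups were differentiated for 6 days with dbcAMP, GDNF and tetracycline. The treated group then received antimycin A at 25 µM, which blocks respiratory complex III, with oligomycin at 10 µM, which blocks the ATP synthase, for 8 h, and the vehicle group received DMSO. Each group held 4 libraries, from 4 independent batches numbered 2 to 5, all of 1 cell line. Values by library are listed in the order 2, 3, 4, 5.

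Library totals ran from 93.7 to 110 M estimated reads. Vehicle replicate 2 stood apart from the other vehicle libraries on the second principal component, which held 10.3% of the variance, and its deviation over genes went with GC content (r = -0.35), as did that of treated replicate 5 (r = -0.55) and, with the other sign, of treated replicate 2 (r = 0.35). Over the 43 tested kinesins the deviation of vehicle replicate 2 from the other vehicle libraries also went with GC content (r = -0.77, a description over genes of 1 library). The median GC content was 44.3% for mitotic kinesins and 52.4% for the tested others. All 11 pan-neuronal markers were tested, 3 of them higher and 5 lower in treated cells, and their summed level was 7660 to 8560 CPM in vehicle and 6820 to 6870 CPM in treated libraries. Of 13 dopaminergic markers, LMX1A was listed at 0 and LMX1B, FOXA2, PITX3 and ALDH1A1 were too low to test, and of the 8 tested 2 were higher and 2 lower. The dopamine transporter gene SLC6A3 stood at 589 CPM and EN2 at 14.1 CPM in vehicle cells, and neither passed the test. TH, which makes the precursor of dopamine, rose from 7.48 to 15.4 CPM (1.04, adjusted p = 0.00039), and KCNJ6 from 4.47 to 7.66 CPM (0.78). EN1 fell from 29.3 to 16.8 CPM (-0.80, adjusted p = 0.005), and DDC, at a low level, from 0.495 to 0.239 CPM (-1.05, adjusted p = 0.0013). Of 9 glial markers, GFAP, AQP4, S100B and SOX10 were too low to test, while OLIG1 (15.3 to 8.97 CPM, -0.77) and OLIG2 (27.1 to 18.9 CPM, -0.52) were lower. Of 8 neural progenitor markers 5 rose and 2 fell, with HES5 at -2.70 and HES1 at -1.25 and a summed level of 289 to 336 CPM in vehicle and 281 to 323 CPM in treated libraries.

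Conventional kinesin, or kinesin-1, pairs heavy chains that carry the motor with light chains that bind cargo. Together with kinesin-2 and kinesin-3 it carries vesicles, mitochondria and ciliary cargo toward microtubule plus ends, and long axons depend on it. Mitotic kinesins build the spindle, align chromosomes and complete cytokinesis, and their RNA rises late in the cell cycle. Many such genes carry a promoter element called CHR, bound in quiescent cells by the DREAM repressor complex, near CCAAT boxes.

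Mitotic kinesin RNA fell in treated cells: 9 of the 12 genes were lower, none was higher, and the median log2 fold change of treated over vehicle was -0.42, against -0.02 over all 19785 tested genes. The treatment moved much of the transcriptome, and 57.9% of all tested genes were called, 30.2% lower and 27.7% higher. Among 14605 tested protein-coding genes the shares were 59.3%, 29.2% and 30.1%. Transport or other kinesins were divided, with 7 of 31 higher, 14 lower and 10 not past the threshold, and a median of -0.08. All tests were quasi-likelihood F-tests in edgeR with Benjamini-Hochberg adjustment over all tested genes and a threshold of 0.05, on which every "higher", "lower", "rose" or "fell" of a gene rests. A fold change is given as log2, treated over vehicle, with its standard error (SE). A level within a gene is in CPM, a read count relative to its scaled library size, as mean ± SD with n = 4 per group.

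**Figure D1:**
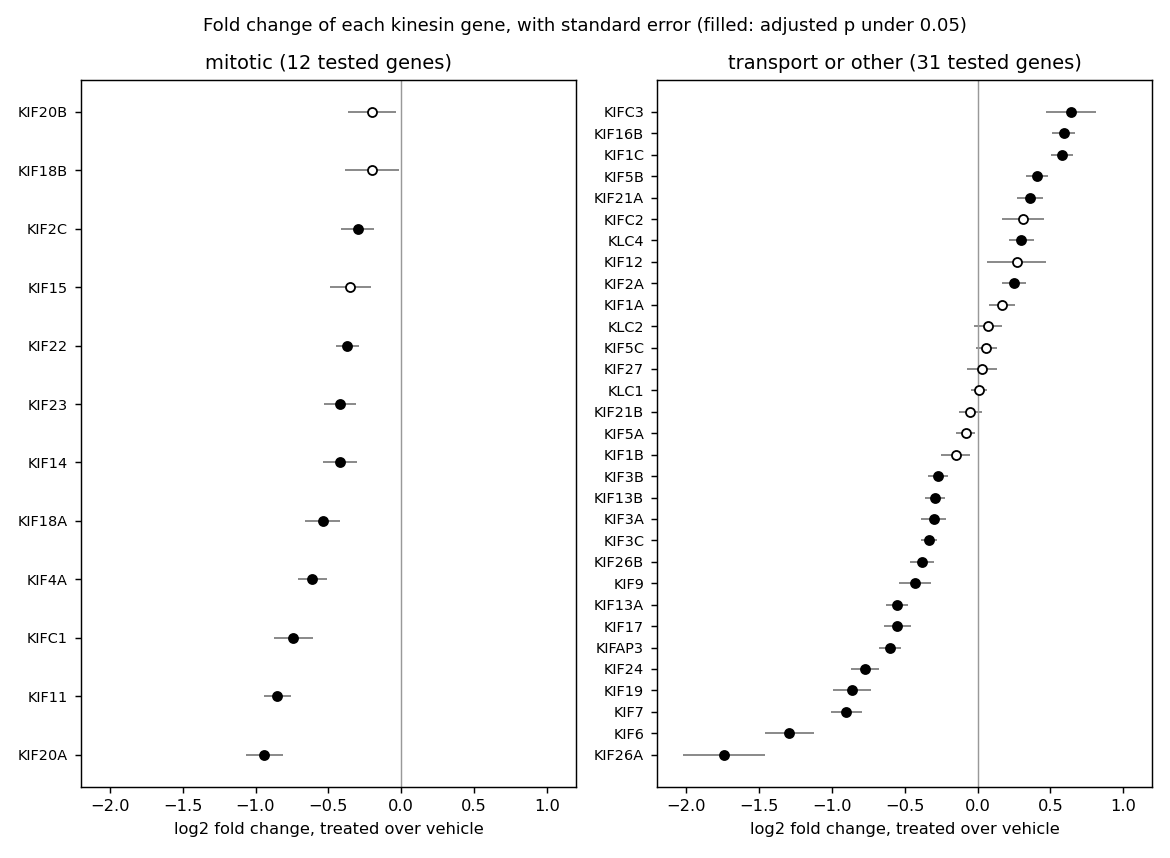
Log2 fold change of treated over vehicle on the horizontal axis, with its standard error, for 12 mitotic (left) and 31 transport or other kinesin genes (right), and filled points for genes past an adjusted p of 0.05. All 12 mitotic points lie below 0, between -0.94 and -0.20, while the others run from -1.74 to 0.64.

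Summed over the 12 mitotic genes, the treated libraries held 160, 158, 167 and 155 CPM and the vehicle libraries 246, 189, 249 and 228 CPM. Every treated sum was below every vehicle sum, and vehicle replicate 3 was the lowest of its group. That library was also the lowest of the vehicle libraries in 10 of the 12 genes. Per transcript length, mitotic kinesins made up 6.18% ± 0.601 of all kinesin TPM in vehicle cells and 4.50% ± 0.189 in treated cells. In bulk RNA, fewer cells of a type and less RNA per cell cannot be told apart. The 6 cycling-cell markers (MKI67, TOP2A, CDK1, CCNB1, PCNA and MCM2), none of them at 0, were all lower, and their summed level ran from 323 to 429 CPM in vehicle and from 219 to 237 CPM in treated cells. The part of these markers, or of the progenitor and glial markers above, in the fall of the mitotic kinesins was not tested.

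The largest fall among mitotic kinesins was that of KIF20A, a motor of the central spindle needed for cytokinesis. Its level was 8.87, 8.66, 9.15 and 7.81 CPM in treated libraries and 19.1, 12.6, 18.4 and 16.2 CPM in vehicle libraries. The groups did not overlap, and treated cells kept 52.1% of the vehicle level (log2 -0.94, SE 0.126, adjusted p = 0.00012).

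KIF11, the bipolar motor also called Eg5 that pushes spindle poles apart, was measured at 21, 20.6, 23.1 and 23.2 CPM in treated and 43.3, 33, 43 and 39.6 CPM in vehicle libraries. Again no library crossed, and the log2 fold change was -0.85 (SE 0.0947, adjusted p = 3.4e-05). KIFC1, a minus-end motor that focuses spindle poles, fell from 19 ± 2.91 to 11.4 ± 1.57 CPM (-0.74, adjusted p = 0.00081), with vehicle libraries at 18.4, 15.6, 22.6 and 19.5 and treated libraries at 12.8, 12, 11.7 and 9.18 CPM.

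Both chromokinesins, motors that ride on chromosome arms, were lower. KIF4A fell from 19.6, 15.1, 20.4 and 18.3 CPM in vehicle to 12.2, 11.6, 12.7 and 11.5 CPM in treated libraries (-0.61, SE 0.0976, adjusted p = 0.00038). KIF22 had vehicle values of 36.1, 39.4, 42.9 and 42 CPM and treated values of 32.1, 32.1, 32.3 and 28 CPM (-0.37, adjusted p = 0.0024). In CPM neither gene had a treated library inside the vehicle range, and KIF22 lost the smaller share. KIF22 was the most abundant mitotic kinesin by TPM in vehicle cells (34.8 ± 7.81). Its TPM overlapped between groups, with vehicle replicate 2 at 23.5, below the treated libraries at 25.8 to 26.9.

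Of the mitotic kinesin-8 motors, which slow or shorten microtubule plus ends, KIF18A fell and KIF18B did not pass the test. KIF18A had 10, 6.77, 9.16 and 8.4 CPM in vehicle and 5.69, 5.61, 5.96 and 6.38 CPM in treated libraries (-0.54, SE 0.119, adjusted p = 0.0031), so that the groups lay apart by a narrow gap at vehicle replicate 3. KIF18B was at 4.97, 4.97, 8.02 and 6.29 CPM in vehicle and 5.71, 5.71, 5.88 and 3.81 CPM in treated libraries, overlapping throughout (-0.20, SE 0.184, adjusted p = 0.37). The test of KIF18B does not show that it was unchanged.

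KIF23, the motor of the centralspindlin complex, fell from 12.1, 8.76, 11.9 and 10.6 CPM to 7.84, 7.54, 8.89 and 8.03 CPM (-0.42, SE 0.111, adjusted p = 0.0079). KIF14, a cytokinesis motor of the kinesin-3 family, fell from 14.5, 10.2, 14.8 and 13.8 CPM to 9.62, 9.63, 9.77 and 10.8 CPM (-0.42, adjusted p = 0.011). In both genes vehicle replicate 3 lay inside the treated range, and the other 3 vehicle libraries were above all treated ones. With an offset for the deposited gene lengths, which differ between libraries with transcript makeup, KIF23 was no longer called (-0.37, adjusted p = 0.054).

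KIF2C, the depolymerase MCAK that corrects chromosome attachments, stood at 16.6, 14, 19.7 and 18.1 CPM in vehicle and 14.9, 13.1, 15.1 and 12.4 CPM in treated libraries. The groups overlapped and the call was close to the threshold (-0.30, SE 0.113, adjusted p = 0.041). It was lost on leaving out treated replicate 2, 3 or 5 or vehicle replicate 4 or 5, with adjusted p between 0.051 and 0.12. The call was also lost with an offset for GC content and without both vehicle replicate 2 and treated replicate 5.

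KIF15, which backs up KIF11 on the spindle, had 21.7, 12.6, 17.7 and 15.3 CPM in vehicle and 12.9, 13.4, 13.5 and 13.1 CPM in treated libraries (-0.35, SE 0.141, adjusted p = 0.057). Vehicle replicate 3 lay below all treated libraries, and without it KIF15 passed (-0.47, adjusted p = 0.0079). KIF20B, another kinesin-6 of cytokinesis, had 29.6, 15.9, 20.5 and 19.9 CPM in vehicle and 16.5, 18.5, 18.9 and 20.8 CPM in treated libraries (-0.20, SE 0.164, adjusted p = 0.31). In 6 of the 12 mitotic genes the groups did not overlap, as in 53.4% of all tested genes.

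**Figure D2:**
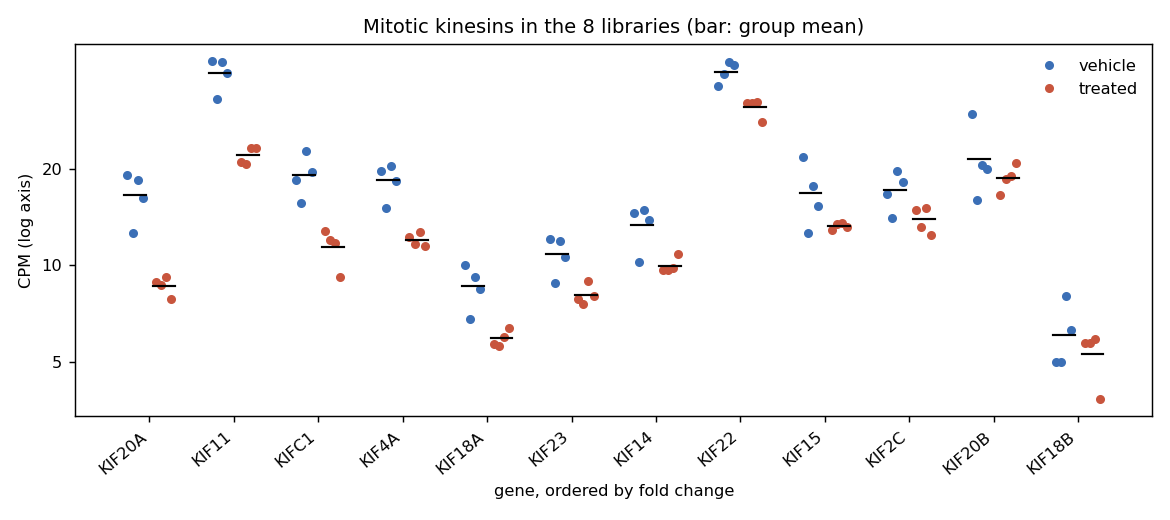
CPM on a log axis of the 12 mitotic kinesins, ordered by fold change, in the 4 vehicle and 4 treated libraries, each point a library and each bar a group mean. Treated points cluster tightly and lie below the vehicle points in 6 genes, while 1 vehicle library (replicate 3) often sits near the treated ones.

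Promoter windows from RefSeq (GRCh38.p14, 250 bases before to 50 after the start) were found for 37 of the 47 genes, all 12 mitotic and 25 others, and were searched because the mitotic genes moved together. The motifs were chosen with the fold changes known, and matches are descriptions, not sites. A CHR element was taken as TTTGAA or TTCGAA and a CCAAT box as CCAAT, each on either strand, and matches of the 2 kinds can share at most 1 base. The stretches below run from 130 bases before the start to 29 bases after its first base, 5′ to 3′ on the gene's strand, with the motifs in capitals, and show 5 mitotic genes that fell and KIF3C, a kinesin-2 gene that fell with neither motif.
KIF20A: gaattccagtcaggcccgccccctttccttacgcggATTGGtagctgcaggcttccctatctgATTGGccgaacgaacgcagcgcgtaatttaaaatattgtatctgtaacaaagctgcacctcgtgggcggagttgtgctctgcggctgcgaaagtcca
KIFC1: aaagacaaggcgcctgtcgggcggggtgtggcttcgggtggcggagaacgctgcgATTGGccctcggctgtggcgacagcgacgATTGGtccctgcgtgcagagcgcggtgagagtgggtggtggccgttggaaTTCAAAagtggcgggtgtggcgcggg
KIF4A: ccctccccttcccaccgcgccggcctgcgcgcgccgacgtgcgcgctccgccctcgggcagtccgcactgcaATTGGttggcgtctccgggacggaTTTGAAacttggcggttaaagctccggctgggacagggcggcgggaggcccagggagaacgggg
KIF18A: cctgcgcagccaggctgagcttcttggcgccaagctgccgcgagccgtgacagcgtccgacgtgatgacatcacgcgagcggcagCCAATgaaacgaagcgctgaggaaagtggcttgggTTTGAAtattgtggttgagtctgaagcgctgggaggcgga
KIF23: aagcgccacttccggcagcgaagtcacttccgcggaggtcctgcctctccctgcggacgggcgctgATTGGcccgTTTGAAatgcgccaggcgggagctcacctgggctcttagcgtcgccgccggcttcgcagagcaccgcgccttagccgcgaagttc
KIF3C: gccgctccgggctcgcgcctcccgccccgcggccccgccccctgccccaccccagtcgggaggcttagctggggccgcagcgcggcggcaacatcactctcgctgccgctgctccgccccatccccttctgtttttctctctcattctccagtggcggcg

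These stretches lie at chr5:138178982-138179141 (+) for KIF20A, chr6:33391693-33391852 (+) for KIFC1, chrX:70289974-70290133 (+) for KIF4A, chr11:28108127-28108286 (-) for KIF18A, chr15:69414219-69414378 (+) for KIF23 and chr2:25982468-25982627 (-) for KIF3C. In KIF4A the CCAAT box began 58 bases before the start and the CHR element 34 bases before it, and in KIF18A the distances were 45 and 10 bases. KIFC1 held a pair of CCAAT boxes and a CHR element that began 4 bases after the start. KIF20A, the mitotic gene with the largest fall, held a pair of CCAAT boxes and no CHR letters in this window.

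Over whole windows, 10 of 12 mitotic kinesins (83.3%) held a CHR element, against 3 of 25 transport or other kinesins (12%) and 12.1% of 17049 promoters of tested protein-coding genes. A CCAAT box was found in 10 of 12 (83.3%), 7 of 25 (28%) and 34.4%. Both kinds together stood in 9 of 12 mitotic windows (75%), in 3 of 25 others (12%) and in 4.86% of the promoters of tested protein-coding genes. Of a kinesin gene only the first window was used, while the 17049 promoters could include several of the same gene. The 3 other kinesins with both were KIF24, KIF4B and KIF5B. KIF24 fell, KIF5B rose and KIF4B was too low to test, and the CHR letters of KIF5B lay farther upstream, 140 bases before the start. Within the mitotic set, KIF2C, with the weakest call, had neither motif, while KIF18B and KIF20B had both and did not pass the test. KIF11 had a CHR element 28 and a CCAAT box 53 bases before its start. The last 25 bases of 29 of the 37 windows were found in a GENCODE transcript of the gene, which holds for the 6 shown and not for KIF11, KIF18B or KIF24, whose RefSeq starts differ.

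**Figure D3:**
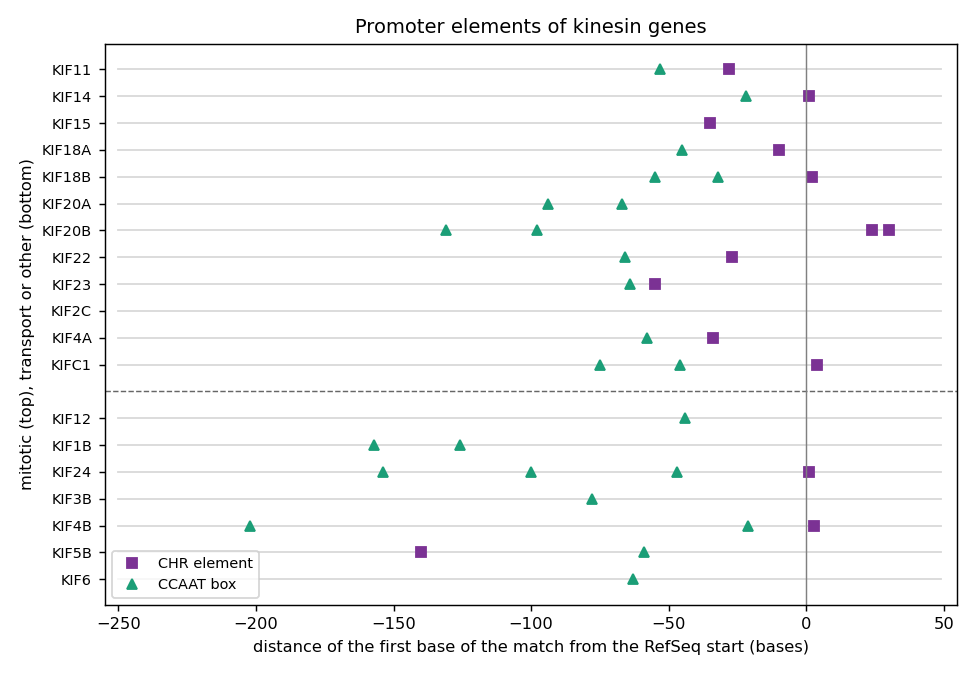
Distance in bases from the RefSeq start to the first base of each CHR element (squares) and CCAAT box (triangles) in the promoter windows of the 12 mitotic kinesins (top) and of the 7 transport or other kinesins with a match (bottom). The mitotic CHR elements lie between 55 bases before and 30 bases after the start, and in mitotic windows with both kinds the CCAAT boxes lie upstream.

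Other genes of cell division, on lists chosen with earlier results of these data known, were also mostly lower. Of 30 mitosis genes that are no kinesin by symbol, 24 fell, none rose and 6 did not pass, with a median of -0.51, among them BUB1, a spindle checkpoint kinase (-0.95), and CCNB1, the mitotic cyclin B1 (-0.91). CENPE, a kinesin-7 of the kinetochore whose symbol keeps it off the kinesin set, fell from 41.4 ± 11.4 to 22.3 ± 1.82 CPM (-0.89, adjusted p = 0.00093). Of 16 replication genes 9 fell and 3 rose, with MCM4, a subunit of the replicative helicase, at -1.16, RFC3, a clamp loader subunit, at -1.05, and the licensing factors CDC6 at 1.16 and CDT1 at 0.74.

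Of 17 cell cycle transcription regulators, 7 rose, 3 fell and 7 did not pass. CDKN1A, the cyclin-dependent kinase inhibitor p21, rose from 17.7 ± 3.43 to 182 ± 28.7 CPM (3.36, adjusted p = 1.4e-07), and CCND1, cyclin D1, fell from 15.5 ± 1.91 to 3.31 ± 0.542 CPM (-2.23, adjusted p = 6.3e-07). LIN52 rose (0.76), and TFDP1, a partner of E2F factors, fell (-0.52). Any link of these changes to the CHR elements was not tested. FOXM1 and MYBL2, activators of late cell cycle genes, did not pass the test, at -0.11 and 0.00.

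Among transport kinesins, the 3 kinesin-1 heavy chains did not move together: KIF5B rose, and the neuronal KIF5A and KIF5C did not pass the test. KIF5B, the heavy chain found in nearly all tissues, was at 451, 392, 407 and 404 CPM in vehicle and 502, 527, 564 and 605 CPM in treated libraries. Every treated library was above every vehicle library (0.41, SE 0.0757, adjusted p = 0.001). Among kinesins past the threshold it had the highest mean TPM in vehicle cells (144 ± 14).

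KIF5C had 1090, 968, 979 and 1020 CPM in vehicle and 978, 1060, 1040 and 1160 CPM in treated libraries (0.06, SE 0.0721, adjusted p = 0.49), and KIF5A had 270, 231, 238 and 246 CPM and 230, 237, 241 and 225 CPM (-0.08, SE 0.0646, adjusted p = 0.32). The CPM of the groups overlapped in both, but KIF5A TPM was lower in all treated (84 to 88.8) than in all vehicle libraries (92.4 to 101). With library totals in place of scaling factors KIF5A was called lower, and with the GC offset KIF5C was called higher. In TPM, which is scaled by transcript length and so can be set side by side between genes, KIF5B was 23.7%, 26.8%, 27.5% and 26.5% of the 3 heavy chains in vehicle and 31.3%, 31%, 32.8% and 32.5% in treated libraries. KIF5C, the main heavy chain in both groups, made up 56.2% ± 0.518 and 52.9% ± 0.873 of that total, and KIF5A 17.6% ± 1.23 and 15.2% ± 0.846. The summed TPM of the heavy chains was 548 ± 25.1 in vehicle and 572 ± 37.1 in treated cells. These shares are given as descriptions, with no test.

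The light chains link kinesin-1 to cargo. KLC4, the least abundant of the 3 tested, rose from 22.4, 26.7, 27.4 and 26.8 CPM to 33.6, 30.7, 33.6 and 29.2 CPM, with no overlap (0.30, SE 0.0842, adjusted p = 0.011). With library totals in place of scaling factors, which shifts the median of all genes from -0.02 to -0.12, that call was lost (0.20, adjusted p = 0.12).

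KLC1, the main neuronal light chain, had 356, 358, 384 and 384 CPM in vehicle and 370, 372, 366 and 383 CPM in treated libraries (0.01, SE 0.056, adjusted p = 0.92), its sign changing with the settings. KLC2 had 118, 122, 121 and 120 CPM and 138, 131, 135 and 99.5 CPM (0.07, SE 0.0962, adjusted p = 0.57), its sign also changing. Treated replicate 5 lay below all vehicle libraries and the other 3 treated libraries above them. Without treated replicate 5 KLC2 was called higher. KLC4 made up 5.69% ± 0.236 of light chain TPM in vehicle cells and 7.52% ± 0.202 in treated cells. KLC3, a light chain best known from the testis, held at most 11 reads in any library and was not tested.

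**Figure D4:**
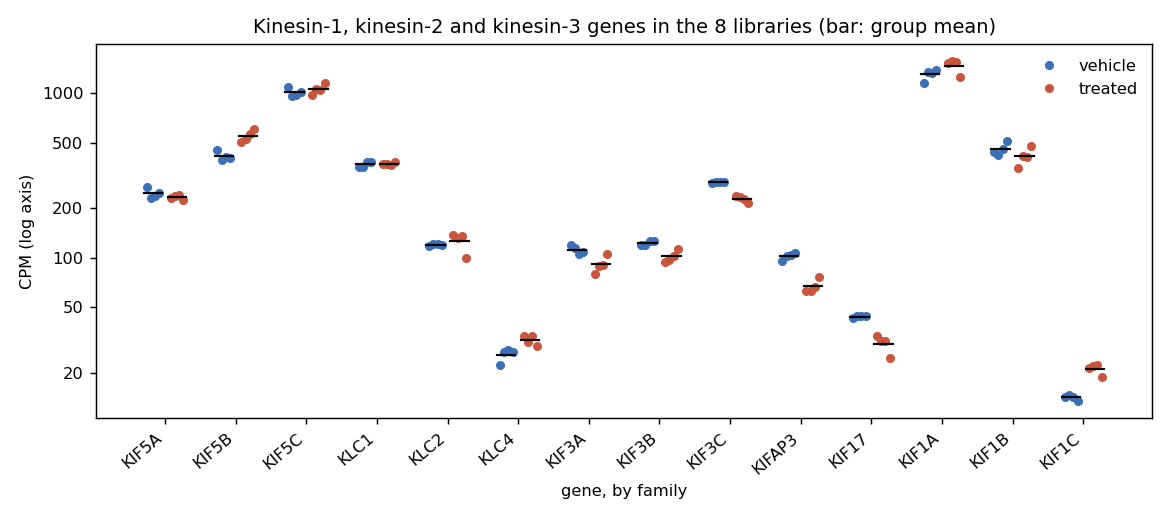
CPM on a log axis of kinesin-1 heavy chains, light chains, kinesin-2 genes and 3 kinesin-3 genes in the 4 vehicle and 4 treated libraries, each point a library and each bar a group mean. KIF5B, KLC4 and KIF1C lie higher in all treated libraries, and the 5 kinesin-2 genes lie lower.

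KLC1 did not pass at the level of the gene but did in which transcripts it was made of. Of 35 kinesin genes with at least 2 transcripts that could be tested, 5 changed in transcript usage (adjusted Simes p under 0.05, diffSpliceDGE in edgeR), beside 8.62% of all 11735 such genes. KLC1 had the smallest p of the 5 (adjusted p = 8.6e-11). Shares below are of the TPM of a gene's annotated transcripts, and so are scaled by length, while the test used reads. Alternative splicing at the 3′ end of KLC1 is known to give light chains with different C-terminal tails.

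Of the 24 KLC1 transcripts tested, 1 passed by itself, KLC1-225. It took 29.5%, 6.06%, 6.73% and 7.11% of KLC1 TPM in vehicle and 0.725%, 0.588%, 0.407% and 0.275% in treated libraries. Vehicle replicate 2 was far above the other 3, and every vehicle library was above every treated one. The usage call of KLC1 held without vehicle replicate 2 (adjusted p = 4.9e-15).

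On chromosome 14 of hg38, as GENCODE 29 gives it, KLC1-225 joins the exon at 103679384 to 103679545 to a last exon at 103685638 to 103685916. KLC1-212 shares that exon but ends in a longer last exon, 103684986 to 103686211, which covers the last exon of KLC1-225. KLC1-212 took 11.1% ± 2.42 of KLC1 TPM in vehicle and 19.6% ± 0.514 in treated cells. KLC1-205, whose last exon (103684986 to 103685316) starts at the same base, took 8.23% ± 1.98 and 16.1% ± 0.85. KLC1-207, which splices from 103685036 to the last exon start of KLC1-225, took 9.68% ± 3.05 and 3.62% ± 1.94 (adjusted p = 0.056). KLC1-224, which ends farther downstream, took 11.4% ± 1.79 and 16% ± 1.19. The groups did not overlap in any of these shares, but the transcripts named were picked from the 24 tested. Over the 24, the share in all treated libraries was above all vehicle libraries for 7 and below them for 7. KLC1-212 (adjusted p = 0.62), KLC1-205 (adjusted p = 0.49) and KLC1-224 did not pass the usage test. KLC1-213, with the largest mean share in vehicle cells, took 14% ± 9.34 there and 18.9% ± 1.89 in treated cells, with an overlap. The exons overlap, so the shares rest on an estimate of how reads divide, and the error of that division is not part of the test.

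**Figure D5:**
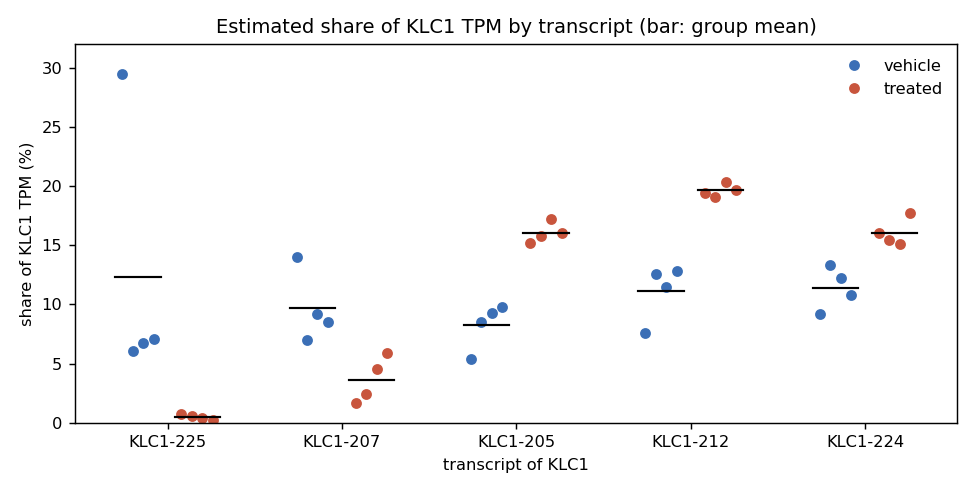
Share of KLC1 TPM in percent for 5 transcripts in the 4 vehicle and 4 treated libraries, each point a library and each bar a group mean. KLC1-225 and KLC1-207 lie lower in treated libraries and KLC1-205, KLC1-212 and KLC1-224 higher, and vehicle replicate 2 alone reaches 29.5% for KLC1-225.

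The other 4 usage calls were each lost under some of the settings tried. For KIF23, the centralspindlin motor above, KIF23-215, a protein-coding form of 23 exons, was listed at 0 in all vehicle libraries and took 29.1%, 38.7%, 38.5% and 39.4% in treated ones. It passed the minimum of reads only through the treated group, so its difference is a description, and the usage call of KIF23, 1 of the 5, rests on it. KIF23-202, the form of 22 exons, took 59.7% ± 8.82 in vehicle and 28.9% ± 12.6 in treated cells. The transcripts found in the annotation held 60.8% of KIF23 reads. Leaving out treated replicate 2, 3, 4 or 5 ended the call, with adjusted p of 0.91, 1, 0.55 and 0.57, since KIF23-215 then drops out of the test.

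In KIF5C, a transcript with a retained intron, KIF5C-203, rose from 0.2% ± 0.0414 to 1.08% ± 0.153 of KIF5C TPM (adjusted p = 0.011, and 0.0099 for the gene). It lay above all vehicle libraries in all treated ones, and a minimum share of 5% of reads removes it from the test. In KIF21A, a regulator of microtubule growth, KIF21A-210, a form of 14 exons that begins inside the gene, took 1.03%, 6.77%, 5.9% and 4.87% in vehicle and 13.4%, 12.3%, 12.6% and 13.2% in treated libraries (adjusted p = 0.0055, and 0.012 for the gene). The call of KIF21A was lost without treated replicate 2, 3 or 4 (adjusted p = 0.096, 0.08 and 0.092) and with the minimum share of 5% (adjusted p = 0.055). KIF13B was called at an adjusted p of 0.031 and lost the call on leaving out any of the 8 libraries in turn (adjusted p 0.085 to 1). Its call, 1 of the 5, rests on KIF13B-202, at 3.51% ± 3.13 in vehicle and 0.466% ± 0.192 in treated cells, with an overlap. Without a vehicle library the adjusted p was 0.97 or more, against 0.085 to 0.19 without a treated one. With a vehicle library left out KIF13B-202 may miss the minimum of reads, so its difference is a description.

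All 5 kinesin-2 genes were lower, beside 30.2% of all tested genes. This motor drives intraflagellar transport and carries cargo in axons, and its genes fell by 0.60 to 0.27 on the log2 scale. In each of the 5 the groups did not overlap, as in 53.4% of all tested genes. KIFAP3, the non-motor subunit that links the motor pair to cargo, had 95.4, 102, 104 and 107 CPM in vehicle and 62.7, 62.9, 66.6 and 76.9 CPM in treated libraries (-0.60, SE 0.0781, adjusted p = 9.7e-05). KIF17, a homodimeric kinesin-2 of dendrites and cilia, had 43.2, 44.4, 44.1 and 44.1 CPM and 33.4, 31.2, 31.1 and 24.5 CPM (-0.55, SE 0.0913, adjusted p = 0.00051).

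KIF3C, the most abundant kinesin-2 gene by TPM (125 ± 14.9 in vehicle, 96.7 ± 0.541 in treated cells), had 285, 287, 289 and 289 CPM in vehicle and 236, 233, 227 and 215 CPM in treated libraries (-0.33, SE 0.0544, adjusted p = 0.00045). KIF3A, which pairs with KIF3B or KIF3C, had 120, 115, 105 and 109 CPM and 79.9, 89.6, 89.8 and 105 CPM, its highest treated and lowest vehicle library lying close together (-0.30, SE 0.0861, adjusted p = 0.012). KIF3B had 120, 119, 126 and 127 CPM and 94.8, 96.7, 103 and 113 CPM (-0.27, SE 0.0687, adjusted p = 0.0066). The kinesin-2 calls kept their direction and their side of the threshold under all 16 other settings tried for gene levels.

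The intraflagellar transport particles that kinesin-2 carries were mixed. Of 19 such genes 9 fell, 5 rose and 5 did not pass, with a median of -0.11. IFT88, a core particle subunit, was at -0.74 and CLUAP1 at -0.44, while IFT22 and IFT20 were both at 0.40.

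Kinesin-3 motors, which carry vesicles over long distances, went both ways, with 2 of 6 higher and 2 lower. KIF1A, the motor of synaptic vesicle precursors and dense-core vesicles, was second to KLC1 by TPM in vehicle cells (354 ± 12.4 against 372 ± 72.3, which did not differ beyond their spread). It had 1160, 1350, 1330 and 1380 CPM in vehicle and 1530, 1570, 1540 and 1250 CPM in treated libraries (0.17, SE 0.0902, adjusted p = 0.12). Treated replicate 5 lay inside the vehicle range, and without it KIF1A passed (0.25, adjusted p = 0.016).

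KIF1B, whose forms carry mitochondria or synaptic vesicle precursors, had 438, 420, 461 and 514 CPM in vehicle and 351, 415, 409 and 479 CPM in treated libraries (-0.15, SE 0.0991, adjusted p = 0.22). The annotated transcripts held 30.8% of its reads, so the balance of its forms was not read. KIF1C, a vesicle motor, had 14.3, 14.7, 14.2 and 13.5 CPM and 21.3, 21.9, 22.4 and 18.9 CPM, with no overlap (0.58, SE 0.0735, adjusted p = 9e-05). With the length offset KIF1C was at 0.22 (adjusted p = 0.17), and its TPM overlapped between groups (4.98 ± 0.753 and 5.53 ± 1.07).

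KIF16B, which moves early endosomes, rose from 23.3, 18.8, 20.3 and 19.7 CPM to 29, 29.9, 31.7 and 32.8 CPM (0.59, SE 0.0814, adjusted p = 0.00015). KIF13A, a motor of recycling endosomes, fell from 54.5, 45.6, 45.3 and 44.7 CPM to 31.7, 31.8, 32.4 and 33.7 CPM (-0.55, adjusted p = 0.00016), and the groups of neither gene overlapped. KIF13B, which moves vesicles, was at -0.29 (adjusted p = 0.0037).

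The largest falls among transport or other kinesins were in genes of low to moderate level. KIF26A, a kinesin-11 without motor ATPase activity, had 6.79, 12.2, 18 and 19.1 CPM in vehicle and 4.41, 4.18, 4.87 and 3.39 CPM in treated libraries, and treated cells kept 30% of the vehicle level (-1.74, SE 0.282, adjusted p = 0.00044). Vehicle replicate 2 was the lowest of its group there and still above all treated libraries. Its relative KIF26B was at -0.38.

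KIF6, a kinesin-9 of motile cilia, had 2.42, 1.91, 1.52 and 1.66 CPM in vehicle and 0.884, 0.711, 0.731 and 0.732 CPM in treated libraries (-1.29, SE 0.17, adjusted p = 0.00011), and its relative KIF9 was at -0.43. KIF7, which organises the ciliary tip for hedgehog signalling, had 12, 13.7, 12.9 and 12.7 CPM and 7.47, 7.59, 7.02 and 5.46 CPM (-0.90, SE 0.108, adjusted p = 6e-05). No library crossed between groups in KIF6, KIF9 or KIF7.

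KIF19, a kinesin-8 depolymerase that limits the length of cilia, had 15.6, 23, 20.5 and 20.2 CPM in vehicle and 12.7, 11.5, 10.4 and 9.2 CPM in treated libraries (-0.86, SE 0.132, adjusted p = 0.00032). KIF24, a centriolar depolymerase that holds back cilium formation, had 5.7, 4.85, 5.03 and 5.3 CPM and 3.07, 3.35, 2.82 and 2.96 CPM (-0.77, SE 0.0963, adjusted p = 7.4e-05). KIF27, related to KIF7, did not pass (0.03, adjusted p = 0.83), and its sign changed with the settings.

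The remaining members differed in level and in change. KIFC3, a minus-end kinesin-14 of cell junctions, rose from 1.84, 3.17, 2.59 and 2.85 CPM to 4.43, 4.58, 4.15 and 3.22 CPM, its highest vehicle and lowest treated libraries nearly meeting (0.64, SE 0.173, adjusted p = 0.009). KIFC2, another kinesin-14, was at 0.31 (adjusted p = 0.089), with treated replicate 5 at 25.6 CPM and the other treated libraries at 39.6, 41.5 and 37 CPM against 24.3 to 31.1 CPM in vehicle cells. Without treated replicate 5 it passed (0.45, adjusted p = 0.0036).

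KIF21A rose from 169, 139, 134 and 135 CPM to 174, 182, 179 and 208 CPM (0.36, SE 0.0908, adjusted p = 0.0061), and its neuronal relative KIF21B was at -0.05 (adjusted p = 0.62). KIF2A, a depolymerase that trims axon branches, had 215, 189, 199 and 203 CPM in vehicle and 213, 230, 239 and 273 CPM in treated libraries, with an overlap (0.25, SE 0.0812, adjusted p = 0.025). The KIF2A call was lost without treated replicate 4 or vehicle replicate 3, 4 or 5 (adjusted p 0.052 to 0.076). It was also lost with library totals (0.15, adjusted p = 0.13) and with the length offset (0.20, adjusted p = 0.13). KIF12 was at 0.27 (adjusted p = 0.28). KIF25 and KIF4B, an intronless near copy of KIF4A whose reads cannot be cleanly told from it, held at most 8 and 7 reads in any library, and KIF2B held 0 reads in all 8, so that no fold change is given.

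By TPM in vehicle cells the order was KLC1, KIF1A, KIF5C, KIF5B, KIF3C, KIF5A (96.4 ± 4.26), KLC2 (94.7 ± 11.2), KIF1B (91.1 ± 11.4) and KIF2A (81.6 ± 3.4). Between neighbours in that order, the ranges over vehicle libraries lay apart for KIF1A and KIF5C, for KIF5C and KIF5B and for KIF3C and KIF5A. They overlapped for KLC1 and KIF1A, for KIF5B and KIF3C and for each pair from KIF5A to KIF2A. Of the 13 tested genes with a mean of at least 100 CPM in vehicle cells, 7 passed the threshold, beside 57.9% of all tested genes.

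Partners of the kinesins and their tracks gave the setting. Of 26 tested dynein and dynactin genes, whose motor walks the other way, 11 fell and 6 rose (median -0.05), with NDE1 at -0.93, DYNLL2 at -0.42, DYNC1LI2 at 0.42 and DCTN2 at 0.36. Of 18 kinesin cargo adaptors 6 fell and 4 rose (median -0.08). KIFBP, which binds kinesin motors and holds them off microtubules, fell from 65.2 ± 1.49 to 38.5 ± 2.51 CPM (-0.76, adjusted p = 5.3e-06), and SYBU, which joins kinesin-1 to syntaxin vesicles, was at -0.71. RHOT1, the mitochondrial GTPase Miro1 through which kinesin-1 carries mitochondria, rose (0.43, adjusted p = 4e-04).

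Of 26 tubulins and microtubule-associated proteins 18 fell and 3 rose, with a median of -0.42. DCLK1, a neuronal microtubule-binding kinase, was at -0.91 and the tubulin TUBB6 at -1.09, while STMN4, a stathmin, rose from 136 ± 5.66 to 321 ± 23.5 CPM (1.24, adjusted p = 3.5e-07) and MAP4 was at 0.27. These lists are given by counts and medians beside the 57.9% of all tested genes that were called, and none was tested as a set.

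The authors' deposited table lists 43 kinesin genes with its own fold changes and false discovery rates. At the same threshold of 0.05 its call was the same as here for all 43: among mitotic kinesins 9 were lower, and among the others 14 were lower and 7 higher. Both analyses rest on the same 8 libraries.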

How the data were processed

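The authors deposited gene and transcript tables per library which hold, per the file headers, estimated counts, TPM and effective lengths in salmon's layout. The quantifier and any use of strand are not given in the sources used. HISAT2, SAMtools, StringTie and hg38 are named, without roles, per the submitters' processing notes. Per the labels, 1.3 µg of total RNA entered mRNA library preparation, with 4 technical replicates per batch. The authors' deposited table of coding genes gives a log2 fold change and a false discovery rate (an adjusted p-value) per gene.

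Estimated counts were rounded, filtered with filterByExpr, scaled by TMM and tested in edgeR 4.0.16 (R 4.3.3) by a quasi-likelihood F-test, with treatment as the only term. The SE is the size of a fold change divided by the root of F. Transcript usage was tested with diffSpliceDGE, for transcripts that reached 10 reads in 4 or more libraries. Shares are of the summed TPM of a gene's annotated transcripts. Gene coordinates and transcript names came from GENCODE 29 (hg38), matched by unversioned identifier, and promoters from RefSeq. Batches are independent per the series text, and no pair of libraries agreed within sampling noise. In simulated data the gene fit recovered 95 of 100 genes changed by 1 on the log2 scale and 39 of 100 changed by 0.5, among 19481 genes. Of 19281 unchanged genes 9 were called. Far fewer genes changed there than the 57.9% called here, so these shares do not give the power of the fit in the present data. No batch is stated as shared, and same-numbered libraries of the 2 groups did not deviate together (r -0.08, 0.03, 0.03 and 0). Alternatives were other normalizations, no filter, DESeq2 1.42.0, a length offset, a replicate block, a GC offset and leaving out libraries. The kinesin genes, lists and motifs were chosen with earlier results of these data known. Named genes are every kinesin, and from each pathway list, the marker lists aside, up to 2 rising and 2 falling genes with the smallest adjusted p, 1 of which is not reported here. Marker genes, CENPE, FOXM1 and MYBL2 were named for their role or their change, after their values were seen. The columns of normalised signal and the lncRNA tables were not used.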

Additional observations from a re-analysis of the deposited data

Results flagged for a closer look

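For each tested kinesin and group, the library farthest from the other 3 was compared with Dixon's 95% critical value for 4 samples. Of 86 groups 10 were past it, and chance flags about 1 in 20 groups. Vehicle replicate 2 gave 5 of them, treated replicate 5 gave 4 and treated replicate 2 gave 1.

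In vehicle replicate 2, KIF13A was the highest of its group at 54.5 CPM (others 44.7 to 45.6), and KIF21A was the highest at 169 CPM (others 134 to 139). In the same library KIF12 was the lowest at 1.28 CPM (others 1.94 to 2.07), KIF13B the lowest at 33.7 CPM (others 37.7 to 38.1) and KLC4 the lowest at 22.4 CPM (others 26.7 to 27.4).

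In treated replicate 5, KIF14 was the highest at 10.8 CPM (others 9.62 to 9.77), while KIF18B at 3.81 CPM (others 5.71 to 5.88), KIF22 at 28 CPM (others 32.1 to 32.3) and KIF1A at 1250 CPM (others 1530 to 1570) were the lowest. In treated replicate 2, KIF6 was the highest at 0.884 CPM (others 0.711 to 0.732).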

How the results depend on the processing

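Of the 30 called kinesins, 25 kept their direction and their side of the threshold under all 16 other settings for gene levels, and the exceptions KIF1C, KIF23, KIF2A, KIF2C and KLC4 kept their direction. The sign of 4 uncalled genes changed. On leaving out libraries KLC1 ran from -0.03 to 0.02 and KIF27 from -0.02 to 0.11. KLC1 went to -0.09 with library totals, -0.08 with the length offset, -0.0031 with no filter, -0.0033 without treated replicate 5, -0.01 without vehicle replicate 2 or 3 and -0.03 without both vehicle replicate 2 and treated replicate 5. KIF27 went to -0.06 with library totals, -0.00045 with the length offset, -0.02 without treated replicate 5 and -0.01 without vehicle replicate 4 or 5, KIF5C to -0.03 with library totals, and KLC2 to -0.03 with library totals and -0.02 with the GC offset. The GC offset and the removal of both libraries were chosen after seeing the data.

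Without 1 library or both of these, 6 to 11 transport or other kinesins rose in place of 7, with 11 when both were left out. The median fold change of all genes was 0.0012 with DESeq2 size factors, 0.0014 with DESeq2, 0.01 with the GC offset and -0.12 with library totals. With library totals the split of all genes was 4280 higher and 7023 lower in place of 5484 and 5977, and the median of transport or other kinesins was -0.17. Leaving out 1 library or both of these moved that median between -0.11 and -0.05 and the number of mitotic kinesins called lower between 8 and 10. The number of kinesins with changed usage was 3 with a share minimum of 5%, 10 with a gene-level F test, and between 2 and 9 on leaving out 1 library, the extremes without treated replicate 2 and without vehicle replicate 2. The cause of these differences was not tested.

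With the replicate number as a block, 9 mitotic and 21 other kinesins were called, and 10764 of all genes. That fit changed no gene-level call of a kinesin, and 4 kinesins changed in usage, KIF13B being lost (adjusted p = 0.24). The numbers are not shown to pair the samples. Depth was high for most members, but KIF25, KIF2B, KIF4B and KLC3 were too low to test.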
